A study of Rattus norvegicus with 3 samples.

Results

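The probes chosen for the proliferation genes Pcna, Cdk1 and Ccnd1 were 3 of the 20174 gene probes on a rat 3D-Gene array, and all 3 were found on every array. They were chosen by their Ensembl rat gene identifiers, ENSRNOG00000021264 for Pcna, ENSRNOG00000000632 for Cdk1 and ENSRNOG00000020918 for Ccnd1. The arrays name probes by identifier only, and the gene table used here matched 0 of the 20174 identifiers, so this pairing of identifier and gene was not checked. Below, "Pcna probe", "Cdk1 probe" and "Ccnd1 probe" stand for the probes chosen under those names.

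The RNA came from cultured rat Schwann cell precursors, neural crest derivatives of the embryonic nerve from which Schwann cells form. They were kept in a modified Sato medium under culture conditions labelled normal, and the labels name no genotype, strain or age. The cell type label is Schwann cell precursor, whereas the treatment text speaks of oligodendrocyte precursors, and markers of neither could be placed on the array. Each of 3 samples was measured on 1 single-colour array, with no second condition, so the measurements concern signal level and spread between samples. The labels do not say whether the samples were separate cultures or animals, so the spread may be technical.

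Pcna, Cdk1 and Ccnd1 act at different points of cell division. Ccnd1 encodes cyclin D1, the regulatory partner of the kinases Cdk4 and Cdk6, which is induced by growth factors and drives cells through G1 by way of retinoblastoma protein phosphorylation. Pcna encodes the sliding clamp that holds DNA polymerase on the template during S phase and also serves in DNA repair. Cdk1 encodes the kinase that with cyclin A and cyclin B carries cells into mitosis, and its transcript is low in cells that have left the cycle. Schwann cell precursors divide in the embryonic nerve and depend on axonal neuregulin for survival.

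Promoters of the S phase and mitotic genes are shown because cell cycle genes share short promoter elements. Each is the 250 bases before the annotated start, read 5′ to 3′ on the gene's strand, from RefSeq on build GRCr8. Of the 3 genes, 2 had an entry in the table, Pcna at chr3:139955821-139956070 on the minus strand and Cdk1 at chr20:19265043-19265292 on the plus strand. Capitals mark matches, on either strand, to CCAAT (the CCAAT box), TTTGAA (the cell cycle genes homology region) and TTCGCGC (letters of an E2F site).
Pcna: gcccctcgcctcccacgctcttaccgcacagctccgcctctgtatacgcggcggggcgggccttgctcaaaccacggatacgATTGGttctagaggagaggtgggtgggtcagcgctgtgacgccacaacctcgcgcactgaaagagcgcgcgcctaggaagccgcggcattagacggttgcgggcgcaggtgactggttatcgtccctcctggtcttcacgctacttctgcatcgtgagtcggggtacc
Cdk1: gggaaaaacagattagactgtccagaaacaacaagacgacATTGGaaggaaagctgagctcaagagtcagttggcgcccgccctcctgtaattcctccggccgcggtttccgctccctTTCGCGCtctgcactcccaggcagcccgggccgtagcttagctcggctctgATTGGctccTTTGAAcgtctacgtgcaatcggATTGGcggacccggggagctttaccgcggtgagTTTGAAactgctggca
The Cdk1 window held CCAAT on the opposite strand beginning 210, 81 and 49 bases before the start, TTTGAA beginning 72 and 16 bases before it and TTCGCGC beginning 132 bases before it. The Pcna window held CCAAT on the opposite strand 168 bases before the start and no match to the other motifs. Among 33469 promoter windows of this length, 34.0% held CCAAT, 16.2% held TTTGAA and 1.21% held TTCGCGC on either strand. The matches overlapped neither each other nor the start, and they describe letters only.

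All 3 probes gave signal above the blank spots on all 3 arrays. Above background means a spot median more than 2 SD over the trimmed mean of blank spots on the same array, with no gain marked as failed, and 80.4% of all gene probes met this on all 3 arrays. Detection was thus common to most gene probes, and the members are described here by their place within the distribution of signal.

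Ccnd1, the G1 cyclin, had spot medians of 2345, 1443 and 1596 in replicates 1, 2 and 3, on the scanner's linear scale. Those values were 42.3, 25.3 and 25.0 times the blank mean of the same arrays. The Ccnd1 probe was thus brightest in replicate 1, with the other samples close to each other. After normexp background correction with an offset of 50 and quantile normalization, its log2 intensity was 11.04, 10.42 and 10.94 in replicates 1, 2 and 3. On this scale replicate 2 stood below both other samples, and the mean was 10.80 ± 0.34 (SD, n = 3).

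Pcna, the replication clamp, had spot medians of 3302, 2556 and 2173 in replicates 1, 2 and 3. This was 59.6, 44.9 and 34.0 times the blank mean. Its log2 intensity after normalization was 11.57, 11.18 and 11.38 in replicates 1, 2 and 3, with a mean of 11.38 ± 0.19 (SD, n = 3). Replicate 3 was the lowest sample on the scanner scale and the middle one after normalization.

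Cdk1, the mitotic kinase, had the dimmest probe of the set, with spot medians of 662, 476 and 489 in replicates 1, 2 and 3. This was 12.0, 8.37 and 7.67 times the blank mean, so the signal stood clear of the blank spots in every sample. The local background beside the spot was 80.0%, 30.0% and 42.4% of the spot median in replicates 1, 2 and 3. Its log2 intensity was 9.18, 8.85 and 9.14 in replicates 1, 2 and 3, with a mean of 9.06 ± 0.18 (SD, n = 3). Replicates 1 and 3 lay within 0.04 of each other on this scale and replicate 2 lay below both.

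Each probe stayed in the bright part of all gene probes in every sample. By mean log2 intensity, 97.1% of the other gene probes were dimmer than the Pcna probe, and 588 were brighter. For the Ccnd1 probe 95.7% were dimmer and 875 brighter. For the Cdk1 probe 87.0% were dimmer and 2613 brighter. Over single arrays the share of dimmer gene probes lay between 96.6% and 97.4% for the Pcna probe, between 94.4% and 96.3% for the Ccnd1 probe and between 85.4% and 87.9% for the Cdk1 probe. In replicates 1, 2 and 3 the brighter gene probes numbered 526, 678 and 593 for Pcna, and 743, 1123 and 802 for Ccnd1. For Cdk1 they numbered 2435, 2953 and 2495. The Pcna and Ccnd1 probes were in the brightest of 10 equal groups of detected probes by level, and the Cdk1 probe in the group next to it. A rank by signal depends on the probe's sequence as well as on the transcript, so the order of the 3 probes is no order of their transcripts' amounts. In bulk RNA, fewer cells with a transcript and less of it per cell cannot be told apart, and with no resting or sorted cells the share of dividing cells was not measured.

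**Figure D1:**
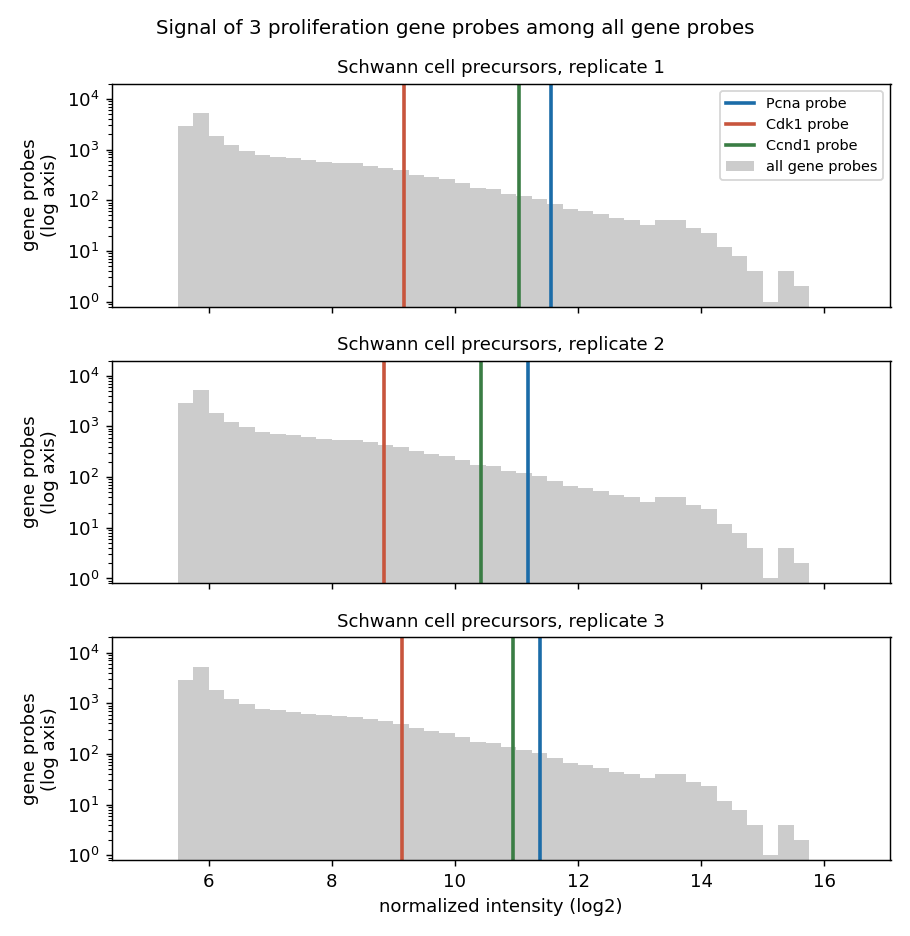
Number of gene probes (log axis) by normalized log2 intensity on each of the 3 arrays, with vertical lines at the Pcna, Cdk1 and Ccnd1 probes. All 3 lines lie in the bright tail, with Cdk1 between 8.85 and 9.18, Ccnd1 between 10.42 and 11.04 and Pcna between 11.18 and 11.57.

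In the quantile normalized values the 3 probes shared 1 order of samples, replicate 1 highest, replicate 3 next and replicate 2 lowest, an order that other scalings turned in part. Relative to its own mean on the log2 scale, the Ccnd1 probe stood at 0.24, -0.38 and 0.14 in replicates 1, 2 and 3. The Pcna probe stood at 0.19, -0.20 and 0.01, and the Cdk1 probe at 0.12, -0.20 and 0.08. The same order held for 20.2% of the 16229 detected gene probes. Shares of single orders lay between 9.91% and 21.5%, so the members' order was among the more frequent ones. Replicate 1 was highest for 31.4% of the detected probes. With 3 samples no correlation between the genes was computed.

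The Cdk1 probe ranged over 0.33 on the log2 scale, a 1.25-fold difference between its highest and lowest sample. The Pcna probe ranged over 0.38 (1.31-fold) and the Ccnd1 probe over 0.63 (1.54-fold). None of the 3 reached a 2-fold range, which 0.622% of detected probes did. None reached it in the deposited value table either, where 16.3% of the probes did. The Cdk1 probe's level group held 1623 detected probes with a median range of 0.33, and 48.6% of them had a narrower range than the Cdk1 probe. In the brightest level group the median range was 0.37, and the range was narrower than that of the Pcna probe for 52.7% of probes and narrower than that of the Ccnd1 probe for 83.9%. Pcna and Cdk1 thus varied about as much as the middle probe of their level, and Ccnd1 had the widest range of the 3 here, whereas Pcna had the widest in the deposited table (0.35, against 0.23 for Ccnd1 and 0.13 for Cdk1) and with local background.

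None of the 3 spread more than probes of its level by limma's variance test. Adjusted p-values by limma, after Benjamini-Hochberg over 16229 probes, were 0.978 for the Ccnd1 probe, 0.995 for the Pcna probe and 0.995 for the Cdk1 probe, and 0.0123% of probes passed at 0.05. The unadjusted p by limma was 0.18 for Ccnd1, 0.54 for Pcna and 0.51 for Cdk1, with 5.74% of probes under 0.05. Spread over 3 arrays is a coarse measure, and a test that is not passed does not show that the samples were alike.

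Replicate 2 was the sample farthest from the middle one for the Ccnd1 and Cdk1 probes and, by a small margin, for the Pcna probe. It stood apart over all detected probes too, with log2 differences of SD 0.25 from replicate 1 and 0.27 from replicate 3. Between replicates 1 and 3 that SD was 0.15, so a distant replicate 2 was not particular to the members. Replicate 1 minus replicate 2 was 0.63 for the Ccnd1 probe, 0.38 for the Pcna probe and 0.33 for the Cdk1 probe on the log2 scale. The SD of this difference was 0.38 over the brightest level group, which holds Ccnd1 and Pcna, and 0.36 over that of Cdk1. Replicate 1 minus replicate 3 was 0.10 for Ccnd1, 0.18 for Pcna and 0.04 for Cdk1, where the SD was 0.23 in the brightest level group and 0.22 in that of Cdk1. Without replicate 2, the range is again the difference between replicates 1 and 3, and was 0.11 for Ccnd1, 0.18 for Pcna and 0.05 for Cdk1. Without replicate 1 it was 0.55 for Ccnd1, 0.21 for Pcna and 0.28 for Cdk1. Repeat spots of 1 positive control differed within arrays with a log2 SD of 0.08 to 0.12. That SD is of spot medians before normalization, so it does not measure the spread between arrays.

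The order of samples changed with the scaling. In the authors' deposited table, Pcna was at 1515, 1640 and 1284 in replicates 1, 2 and 3, so that replicate 2 was highest. Ccnd1 was at 1068, 909 and 932 there, and Cdk1 at 283, 275 and 259. The deposited values are the spot median minus a constant, multiplied by a factor per array of 0.467, 0.656 and 0.609, which sets the median of the listed probes at 25 on each. The factor of replicate 2 was 1.41 times that of replicate 1, and the raw Pcna ratio of 1.29 between replicates 1 and 2 became 0.924 in the table. Over 7 ways of processing, replicate 1 was highest in 6 for Ccnd1, in 5 for Pcna and in 5 for Cdk1. Replicate 2 was lowest in 7 of 7 for Ccnd1, in 6 of 7 for Cdk1 and in 4 of 7 for Pcna. Several of the 7 ways share the quantile step, so these counts are not independent. In the quantile normalized values, the 2 orders with replicate 2 lowest held for 20.2% and 18.9% of all detected probes.

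**Figure D2:**
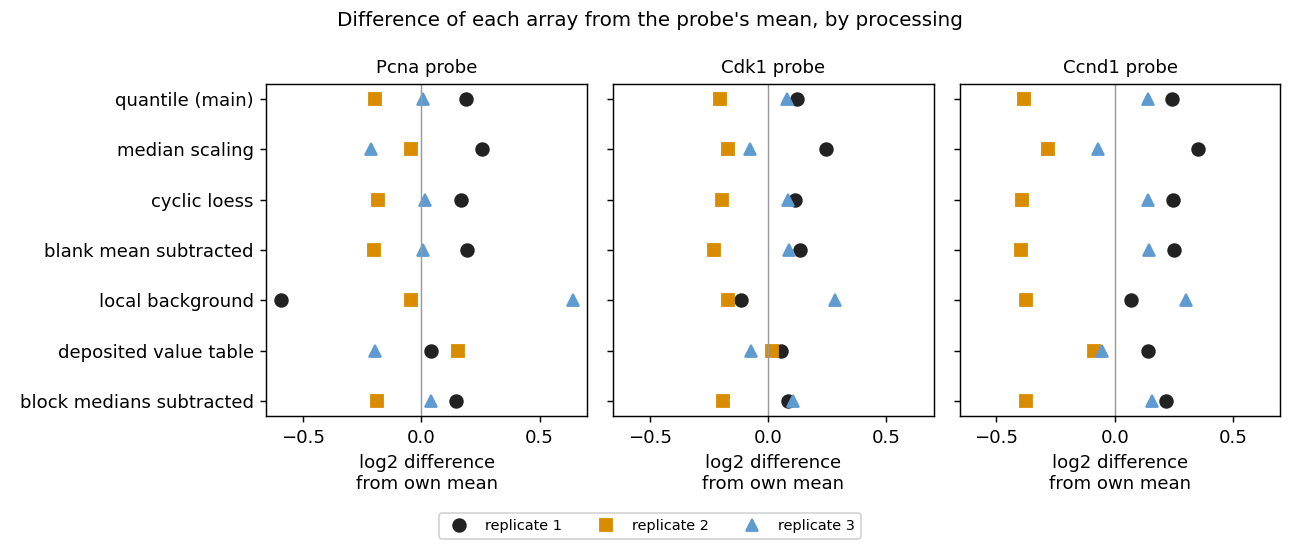
Difference of each replicate from the probe's own mean (log2, horizontal axis) under 7 ways of processing (rows), for the Pcna, Cdk1 and Ccnd1 probes. Replicate 2 lies lowest for Ccnd1 in every row, though the order of the others changes with local background. The order for Pcna changes with median scaling, in the deposited value table and with local background. In the last of these, replicate 1 is at -0.59 and replicate 3 at 0.64 for Pcna. For Cdk1 it changes with local background, in the deposited value table and with block medians subtracted.

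Ratios between the members within an array are free of any single scale factor. The signal over the blank mean of Ccnd1 relative to Pcna was 0.705, 0.555 and 0.726 in replicates 1, 2 and 3. The ratio in replicate 2 was lower than in both others, and the highest was 1.31 times the lowest. Cdk1 relative to Pcna was 0.187, 0.168 and 0.202, a 1.20-fold span. Cdk1 relative to Ccnd1 was 0.265, 0.303 and 0.278, a 1.14-fold span. By these values the members did not change in exact proportion, and the size of each ratio also reflects the probes. The ratios depend on how background is taken. With local background in the normexp correction, Ccnd1 and Pcna had log2 intensities of 10.07 and 10.05 in replicate 1. They had 9.63 and 10.59 in replicate 2, and 10.30 and 11.28 in replicate 3. Ccnd1 was then brighter than Pcna in replicate 1 only, and stood about as far below Pcna in replicate 2 as in replicate 3. These values are quantile normalized, unlike the ratios above.

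The local background reported beside the members differed strongly between arrays. It was 82.2% of the spot median for Pcna in replicate 1, 8.95% in replicate 2 and 8.65% in replicate 3. For Ccnd1 it was 74.3%, 21.7% and 36.1%, and for Cdk1 80.0%, 30.0% and 42.4%. The replicate with the brightest spots thus also had the highest local background for all 3 probes, as it did over all gene spots brighter than 500 units, where the median was 73.6%, 22.0% and 44.3% in replicates 1, 2 and 3. With local background entered in the normexp correction, Pcna ranged over 1.23 on the log2 scale, a 2.35-fold difference, with replicate 1 lowest and replicate 3 highest. Replicate 3 was also highest for Ccnd1, at 0.30 over its own mean against 0.07 in replicate 1, and for Cdk1, at 0.28 against -0.11, so replicate 1 was highest for none of the 3 in that setting. There 12.8% of detected probes had a 2-fold range. Its part in the members' order was not tested. The 8 spots around each member were dim by their median but not always by their maximum. Around Cdk1 the brightest neighbour had 637, 565 and 440 units in replicates 1, 2 and 3, about as bright as Cdk1 itself and brighter than it in replicate 2, with a median neighbour of 106, 90.3 and 92.2 units. Around Pcna the brightest neighbour had 285, 211 and 205 units, and around Ccnd1 it had 170, 160 and 137 units, each well below the member. The part of neighbouring spots in the members' values was not tested.

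**Figure D3:**
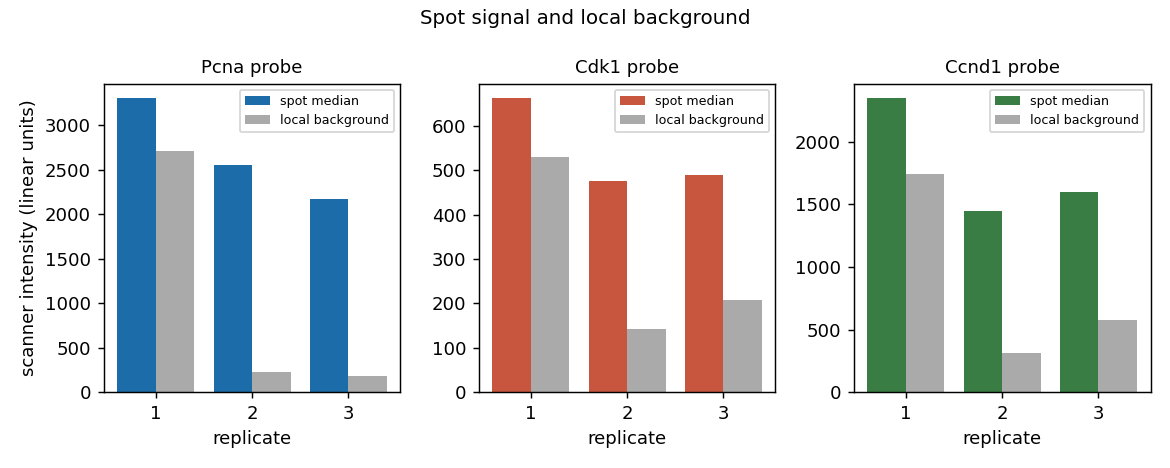
Spot median (coloured bars) and local background (grey bars) in linear scanner units for the Pcna, Cdk1 and Ccnd1 probes on the 3 arrays, each panel with its own axis starting at 0. The spot median is highest in replicate 1 for all 3 probes, and the local background there is 74.3% to 82.2% of it.

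Some other probes matched a member in level on every array. Within 0.1 on the log2 scale on all 3 arrays lay 21 of 16228 other detected probes for Cdk1, 3 for Pcna and 3 for Ccnd1. Gene probes are more numerous at the level of Cdk1. In replicate 1, 389 lay between 9 and 9.25 (with Cdk1), 119 between 11 and 11.25 (with Ccnd1) and 85 between 11.5 and 11.75 (with Pcna). How many matches other probes of these levels had was not computed. The closest was ENSRNOG00000013691 for Cdk1, at most 0.04 away, ENSRNOG00000001719 for Pcna, at most 0.05 away, and ENSRNOG00000028062 for Ccnd1, at most 0.06 away. These likenesses are over 3 samples, and the probes' genes are not named in the table used here. Further cell cycle genes and inhibitors were listed by symbol and, for want of a match, have no values.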

How the data were processed

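RNA from 3 samples was labelled with Cy5 and hybridized to 3D-Gene arrays, per the labels' protocols. Per the file headers, the scanner files give spot median intensity and local background intensity on a linear scale, unsubtracted, with a pass or fail mark at each gain. The deposited table holds intensity the authors normalized, and its listed probes were exactly those called above background here. Scanner software and genome build: not given in the sources used here.

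Blank spots were trimmed by 5% at each end. Spot medians were corrected by normexp (offset 50, all spots, no local background), gene probes were quantile normalized and log2 taken; the offset shrinks differences of dim probes. The variance test was limma's intercept-only fit with the tail p of a robust, level-dependent prior, tested on simulated data. The fits ran in limma 3.58.1 under R 4.3.3, and figures were drawn with matplotlib 3.10.9 in Python 3.11.15. The number of arrays, 3, limits the precision. Members, lists and alternatives were chosen with earlier results of these data known. The named genes are the members and, per member, the detected probe with the smallest largest difference over the arrays. Alternatives were other scalings, background corrections, thresholds and filters, block medians and leaving out an array. Lists of cell cycle genes and cell type markers were not used, as no identifier matched a symbol.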

Additional observations from a re-analysis of the deposited data

Results flagged for a closer look

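The local background column, which the main values do not use, stood above the highest local background beside any blank spot of the same array for all 3 probes. Beside the Pcna probe it was 2713, 229 and 188 units in replicates 1, 2 and 3. Beside the Ccnd1 probe it was 1741, 313 and 575 units, and beside the Cdk1 probe 530, 143 and 207 units. The highest value beside a blank spot was 102, 66.6 and 63.7 units, and the median was 50.5, 51.1 and 58.8 units. Its part in the differences between arrays was not tested.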

How the results depend on the processing

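Filters on probes change neither rank nor range, and scalings of whole arrays keep nearly all of the order within an array, so they test the rank little. With local background, with block medians subtracted and with each array left out, the rank of each member moved by less than its SD between arrays in 15 of 15 values. Leaving out 1 of 3 arrays can shift their mean by only part of that SD. Subtracting block medians hardly changes the mean, so these 2 alternatives also test the rank little. With local background 97.3%, 96.0% and 87.5% of the other gene probes were dimmer than the Pcna, Ccnd1 and Cdk1 probes. The 3 probes stayed above background with a threshold of 3 SD and with that of the negative controls. At the main threshold 80.4% of all gene probes passed, and the share at the other thresholds was not counted. None of the 3 members passed limma's variance test in any of 11 alternative fits, with adjusted p-values by limma of 0.950 to 0.998. Of all detected probes 0.0123% passed in the main fit, and the share in the alternative fits was not counted. That no member passed thus says little about the members. For the range, each probe's SD (0.19 for Pcna, 0.18 for Cdk1, 0.34 for Ccnd1) is a wide allowance beside 0.38, 0.33 and 0.63. The log2 range moved by less than that SD in 21 of the 27 values that an alternative could change. The exceptions were a range of 1.23 for Pcna with local background in place of 0.38, ranges of 0.13 for Cdk1 and 0.23 for Ccnd1 in the deposited table in place of 0.33 and 0.63, and the 3 ranges without replicate 2. Leaving out each array gave 0.18 to 0.38 for Pcna, 0.045 to 0.33 for Cdk1 and 0.11 to 0.64 for Ccnd1, the lowest being those without replicate 2. Replicate 3 was the middle sample of all 3 probes in the main values. Leaving it out can thus change the range only by way of the normalization and tests it little. A range over 2 arrays has fewer samples by construction, and for the remaining exceptions the cause was not tested. No paired analysis was possible because there is only 1 group.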
